A study of Mus musculus with 20 samples.

Results

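The slow-twitch muscle fibre genes described here are 10 genes of the contractile and calcium handling apparatus of slow skeletal muscle fibres. They were taken by symbol from a deposited table of 54532 genes, where all 10 were found. RNA had been sequenced from mouse temporomandibular joint (TMJ) tissue, namely the condylar head of the lower jaw with part of the subchondral bone. Every animal was Acan-Cre;*Loxl2* fl/fl, so controls carried the same alleles, and tamoxifen-activated Cre under the aggrecan promoter was meant to delete *Loxl2* (lysyl oxidase like 2, a collagen crosslinking enzyme) in aggrecan-expressing cells. Starting at 6 months of age, mice received vehicle (8 control libraries) or tamoxifen at 75 mg/kg (12 libraries labelled *Loxl2* knockout) on 5 consecutive days and then as a monthly maintenance injection, and tissue was taken after 4 months. The drug and the deletion therefore cannot be told apart. The comparison asks which genes differ in the joint after treatment meant to induce the deletion.

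Skeletal muscle fibres contract by sliding myosin along actin, and each part of this machinery comes in slow and fast forms encoded by separate genes. Slow fibres use a slow myosin heavy chain with its own light chains, a troponin complex that makes the thin filament respond to calcium, and a slow calcium pump and calcium store in the sarcoplasmic reticulum. Several slow fibre genes are also the genes of heart muscle, and mouse jaw muscles are known for their predominance of fast fibres. *Tpm3* and *Atp2a2* in addition make forms that are used in many cell types outside muscle.

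The myosin heavy chain genes of this group each hold a microRNA in an intron, which is a feature the choice of genes did not use. *Myh7* (slow myosin heavy chain) lies on the minus strand at chr14:54970684-54994626 and *Myh7b* (a related myosin heavy chain) on the plus strand at chr2:155611212-155634307 (GRCm38/mm10). The mature sequences of both microRNAs, from RefSeq on GRCm38.p6, are shown because they link the 2 genes, with the seed at bases 2 to 8 in capitals. The first is encoded at chr14:54975710-54975731 (minus strand) and the second at chr2:155622893-155622913 (plus strand).
mmu-miR-208b-3p: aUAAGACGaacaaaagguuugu
mmu-miR-499-5p: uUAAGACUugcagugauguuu
Bases 2 to 7 of the pair are the same, and the last base of the seed differs. Long RNA libraries do not measure mature microRNAs, and the genes *Mir208b* and *Mir499* had 7 and 3 counts over the 20 libraries. The other members lie at chr5:122100951-122113472 (*Myl2*, plus), chr9:110741861-110769798 (*Myl3*, plus), chr7:4504570-4516382 (*Tnnt1*, minus), chr1:135779434-135810989 (*Tnni1*, plus), chr14:31208312-31211729 (*Tnnc1*, plus), chr3:90072649-90100902 (*Tpm3*, plus), chr5:122453513-122502225 (*Atp2a2*, minus) and chr3:102086415-102146514 (*Casq2*, plus).

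Promoter windows of 250 bases before the RefSeq start (GRCm38.p6) were matched for 9 of the 10 members. Letters of 2 motifs known from muscle promoters were searched in them on both strands. The RefSeq start is not the gene start given above for every member. The windows of *Myl2* end at chr5:122092723 and chr5:122093188 and do not adjoin its gene start at chr5:122100951. The MCAT letters CATTCC, recognised by TEAD factors, stood in at least 1 window of 3 members (*Myh7*, *Myl3* and *Tnnc1*) and of 14.4% of all 27025 genes with a window. The MEF2 motif stood in the window of 1 member (*Casq2*) and of 3.42% of all genes. The windows of *Myh7* (chr14:54994627-54994876, minus strand), *Tnnc1* (chr14:31208062-31208311, plus strand) and *Casq2* (chr3:102086165-102086414, plus strand) are given because they hold a match, in capitals, and no annotated exon.
Myh7: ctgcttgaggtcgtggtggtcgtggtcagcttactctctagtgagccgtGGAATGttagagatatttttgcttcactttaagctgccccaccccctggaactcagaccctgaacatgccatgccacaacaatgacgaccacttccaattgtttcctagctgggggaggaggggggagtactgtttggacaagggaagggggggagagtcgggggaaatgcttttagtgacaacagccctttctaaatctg
Tnnc1: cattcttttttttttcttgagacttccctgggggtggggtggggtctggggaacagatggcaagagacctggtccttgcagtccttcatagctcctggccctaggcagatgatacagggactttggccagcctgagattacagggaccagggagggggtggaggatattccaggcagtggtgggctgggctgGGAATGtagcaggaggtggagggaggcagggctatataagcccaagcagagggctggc
Casq2: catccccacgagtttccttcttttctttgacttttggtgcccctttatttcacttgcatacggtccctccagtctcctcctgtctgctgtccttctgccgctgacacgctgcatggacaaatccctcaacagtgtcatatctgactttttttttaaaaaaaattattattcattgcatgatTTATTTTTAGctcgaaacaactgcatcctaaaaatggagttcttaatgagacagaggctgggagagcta
The match ran from 201 to 196 bases before the start in *Myh7*, from 58 to 53 in *Tnnc1* and from 69 to 60 in *Casq2*. These are matches of letters, and no binding was measured.

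Library totals ranged from 11153820 to 27045668 counts. *Loxl2*, the targeted gene, went against the label, with 28.8, 110 and 126 CPM (counts scaled to the same library size; lowest, median and highest) in the 12 libraries labelled knockout and 16, 70.3 and 103 CPM in the 8 controls, which is a log2 fold change of 0.64 ± 0.28 (SE, with an edgeR adjusted p of 0.101). Of 8 cartilage marker genes, 7 were detected well enough to test, and 2 of them rose (*Col11a2* at 2.01 and *Col9a1* at 2.12 on the log2 scale). Of all 15984 genes tested, 12.0% were called higher and 11% lower, beside which the counts in these lists are to be read. Summed over 15 genes of skeletal muscle in general, the level was 41027 to 115550 CPM in control and 30976 to 70121 CPM in the libraries labelled knockout, and 8 of the 15 genes fell. Of 8 osteoblast and osteocyte markers 5 rose, with summed levels of 1280 to 12074 CPM in control and 3990 to 38477 CPM in the libraries labelled knockout. All 8 osteoclast markers rose, with summed levels of 115 to 1387 CPM in control and 591 to 7860 CPM in the libraries labelled knockout. In tissue of this kind, fewer muscle cells and less RNA per cell cannot be told apart, and the part of these cell types in the results below was not tested except where a fit with their level is given.

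The 10 slow fibre genes together stood far below the fast fibre genes. The 10 genes together reached 205 to 579 CPM in control and 292 to 689 CPM in the libraries labelled knockout, whereas 15 fast fibre genes reached 40428 to 151090 and 26894 to 71008 CPM. The mean sum of the 10 slow fibre genes was 0.501% of that of the fast genes in control and 0.915% in the libraries labelled knockout. A further 11 slow fibre or slow-enriched genes, described below, summed to 5182 to 8362 CPM in control and 3278 to 7827 CPM in the libraries labelled knockout. *Atp2a2* and *Tpm3*, which are also used outside muscle, had means of 191 and 66.9 CPM in control. The percentages therefore do not measure the slow share of muscle RNA. Among the counts of the 4 adult myosin heavy chains *Myh1*, *Myh2*, *Myh4* and *Myh7*, the share of *Myh7* was 0.00213%, 0.0130% and 0.0825% (lowest, median and highest of 8) in control. In the 12 libraries labelled knockout the same values were 0%, 0.0171% and 0.319%. A Wilson interval of the highest share, from knockout replicate 6, ran from 0.302% to 0.336% at 95% confidence. Knockout replicate 3 had no *Myh7* count among 368646 myosin counts, which allows a share of up to 0.000814%. Intervals and limits cover counting error only.

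Per kilobase of merged exons, the members spanned a wide range of levels. In control the order of mean CPM per kilobase (± SD, n = 8) started with *Atp2a2* (slow calcium ATPase) at 31.4 ± 8.05, *Myl2* (slow regulatory light chain) at 20.9 ± 14.4, *Casq2* (slow calsequestrin) at 18.2 ± 8.01 and *Tpm3* (slow tropomyosin) at 11 ± 4.33. The troponins *Tnnt1*, *Tnnc1* and *Tnni1* followed at 3.84 ± 3.21, 1.97 ± 1.87 and 1.70 ± 1.61. *Myl3* (slow essential light chain), *Myh7* and *Myh7b* came last at 1.46 ± 1.11, 0.683 ± 0.727 and 0.499 ± 0.659. Only the step from *Tpm3* to *Tnnt1* exceeded the larger SD of the neighbours, and *Tpm3* was above *Tnnt1* in 8 of 8 control libraries. In the libraries labelled knockout (n = 12) the order was *Atp2a2*, *Myl2*, *Tpm3*, *Casq2*, *Tnni1*, *Tnnt1*, *Myh7*, *Tnnc1*, *Myl3* and *Myh7b*, from 34.9 ± 6.17 down to 0.15 ± 0.0839, and the neighbours *Atp2a2*, *Myl2* and *Tpm3*, the neighbours *Tnni1* and *Tnnt1*, and the neighbours *Myh7*, *Tnnc1* and *Myl3* each differed from the next by less than the larger SD. For comparison on the same scale, the fast myosin *Myh1* stood at 2659 ± 1341 and the fast calcium pump *Atp2a1* at 4112 ± 2198 CPM per kilobase.

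**Figure D1:**
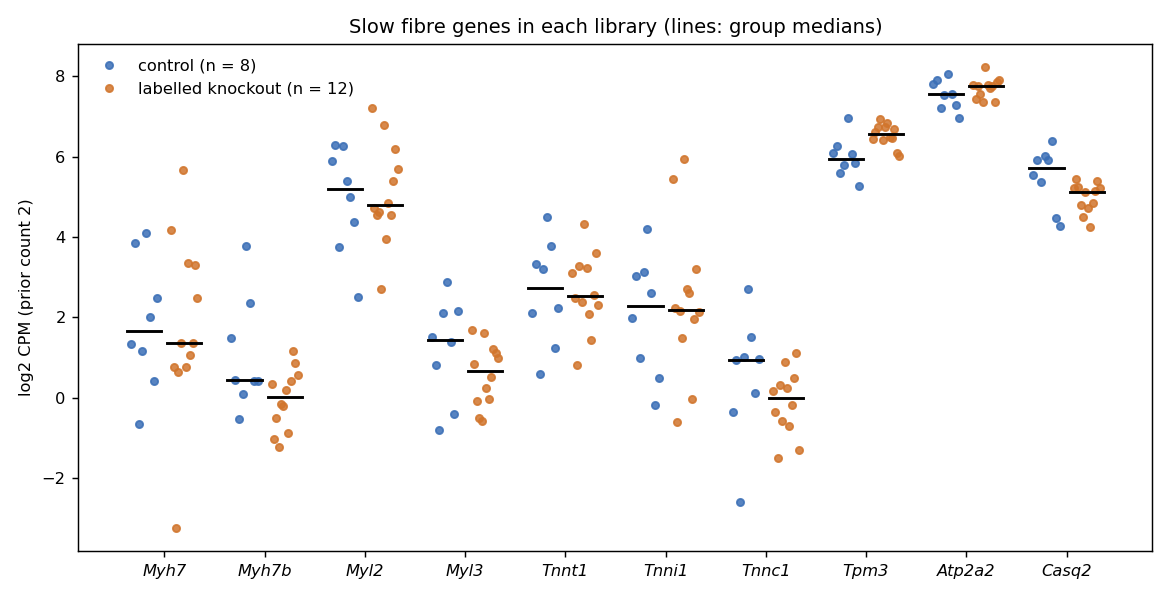
Level of each slow fibre gene as log2 CPM (vertical axis, prior count of 2) in every library, with control libraries in blue (n = 8), libraries labelled knockout in orange (n = 12) and black lines at group medians. *Myh7* and *Tnni1* spread widest in the libraries labelled knockout, and the points of both groups overlap for every gene.

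Between the groups, the slow fibre genes did not move together. Of the 10 members tested, 1 rose (*Tpm3*) and 2 fell (*Myh7b* and *Casq2*) in the libraries labelled knockout at an edgeR adjusted p under 0.05, while 12.0% of all 15984 genes tested were called higher and 11% lower. The median log2 fold change was -0.02 over the members and -0.02 over all genes tested. By contrast, 7 of 15 fast fibre genes fell and none rose, with a median log2 fold change of -0.70.

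Among the myosin heavy chains, *Myh7b* fell. Its lowest, median and highest levels were 0.584, 1.25 and 13.6 CPM in control (n = 8) and 0.320, 0.913 and 2.13 CPM in the libraries labelled knockout (n = 12). The groups overlapped, 9 of the 12 were below the control median, and control replicate 5 stood above every other library, the next being at 4.98 CPM. It fell by 1.74 ± 0.51 on the log2 scale (SE, with an edgeR adjusted p of 0.0178). Without control replicate 5 it was -0.90 ± 0.42 (edgeR adjusted p = 0.116), so that the call rests on this library. The same library had 396 counts of *Myh6*, the heart myosin heavy chain, against 0 to 90 in the other 19. It belongs to a list of 10 heart muscle genes, of which 5 were detected well enough to test and none was called. The highest counts of the others in any library were 361 for *Ryr2*, 5143 for *Actc1*, 257 for *Myl4*, 69 for *Tnni3*, 44 for *Mybpc3*, 33 for *Tnnt2*, 10 for *Nppb* and 3 each for *Nppa* and *Myl7*. Summed over the list, levels were 32.1 to 196 CPM in control and 24.2 to 299 CPM in the libraries labelled knockout. The part of heart-type myosin expression in this result was not tested. *Myh7b* shares 37 exon bases with the opposite-strand gene *Trpc4ap*, and counting by strand was not stated.

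*Myh7* itself ranged from 0.526 to 16.9 CPM in control, with a median of 3.17, and from 0 to 50.3 CPM in the libraries labelled knockout, with a median of 2.47. The groups overlapped widely, and knockout replicates 6 and 1 were the only libraries above the control range. The log2 fold change of 0.58 ± 0.81 (SE, with an edgeR adjusted p of 0.637) did not pass, and without knockout replicate 6 it was -0.25 ± 0.71. Of the distinct 100-base stretches of *Myh7* transcripts, 7.71% also occur in *Myh6*, so reads may be divided between these genes.

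The slow light chains gave no call. *Myl2* ranged from 5.59 to 77.7 CPM in control (median 36.8) and from 6.47 to 148 CPM in the libraries labelled knockout (median 27.5). Only knockout replicates 1 and 6 exceeded the control range, and the groups differed by 0.22 ± 0.51 on the log2 scale (SE, with an edgeR adjusted p of 0.788). *Myl3* had medians of 2.61 CPM in control and 1.5 CPM in the libraries labelled knockout, and 10 of the 12 were below the control median. Its log2 fold change of -0.89 ± 0.42 (SE, with an edgeR adjusted p of 0.131) did not pass, and 95 of its exon bases overlap the more abundant opposite-strand gene *Pth1r*. Without control replicate 5 the value of *Myl3* was -0.56, and without knockout replicate 1 that of *Myl2* was -0.08, and neither passed.

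The slow troponins, which bind calcium (*Tnnc1*), inhibit the actin and myosin interaction (*Tnni1*) and anchor the complex to tropomyosin (*Tnnt1*), did not pass the test after adjustment over all genes. *Tnni1* varied most among these. It ranged from 0.777 to 18.3 CPM in control (median 4.92) and from 0.548 to 61.1 CPM in the libraries labelled knockout (median 4.47), with replicates 6 and 1 again above the control range. Log2 fold changes were 1.01 ± 0.76 for *Tnni1* (edgeR adjusted p = 0.349), -0.19 ± 0.45 for *Tnnt1* (edgeR adjusted p = 0.801) and -1.10 ± 0.49 for *Tnnc1* (edgeR adjusted p = 0.111). *Tnnc1* was below the control median in 11 of the 12 libraries labelled knockout, at 0.249 to 2.06 CPM against 0.0584 to 6.40 CPM in control, and its unadjusted p was 0.0371. Single libraries weighed on these values. *Tnni1* was at 0.36 without knockout replicate 6 and 0.64 without knockout replicate 1. *Tnnc1* was at -0.58 without control replicate 5, and at -1.29 without control replicate 3, where it passed (edgeR adjusted p = 0.0391). *Tnnt1* was at 0.21 without control replicate 5.

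*Tpm3*, the slow tropomyosin that covers the myosin binding sites of actin and that is also made outside muscle, rose. Levels were 38.4, 61.8 and 125 CPM in control (lowest, median and highest of 8) and 64.3, 94.2 and 123 CPM in the libraries labelled knockout (n = 12). All 12 were above the control median, but none exceeded control replicate 5. On the log2 scale the rise was 0.50 ± 0.17 (SE, with an edgeR adjusted p of 0.0400). The call was made in 7 of 20 fits that each left out 1 library. With the osteoclast marker level in the model the log2 fold change was 0.04 ± 0.21 (edgeR adjusted p = 0.985). All 8 osteoclast markers themselves rose with the group, and 0 of 15984 genes were called in that fit. It therefore cannot separate the marker level from the group. Of the 100-base stretches of *Tpm3* transcripts, 15.8% also occur in the related gene *Tpm3-rs7*.

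Of the calcium handling genes, *Casq2* passed the test and *Atp2a2* did not. *Casq2*, the slow form of the calcium-storing protein of the sarcoplasmic reticulum, was at 19.1, 53.2 and 83.4 CPM in control (lowest, median and highest of 8) and at 18.9, 34.8 and 43.5 CPM in the libraries labelled knockout. Every one of the 12 was below the control median, although the ranges overlapped. *Casq2* fell by 0.61 on the log2 scale (SE 0.22, with an edgeR adjusted p of 0.0497), just past the threshold, and passed in 4 of 20 fits that each left out 1 library. *Atp2a2*, which pumps calcium back into the store, was at 123, 187 and 267 CPM in control and at 165, 217 and 299.7 CPM in the libraries labelled knockout. The ranges overlapped, with 3 control libraries (replicates 3, 7 and 8) below all libraries labelled knockout. *Atp2a2* stood at 0.15 ± 0.14 on the log2 scale (SE, with an edgeR adjusted p of 0.448).

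**Figure D2:**
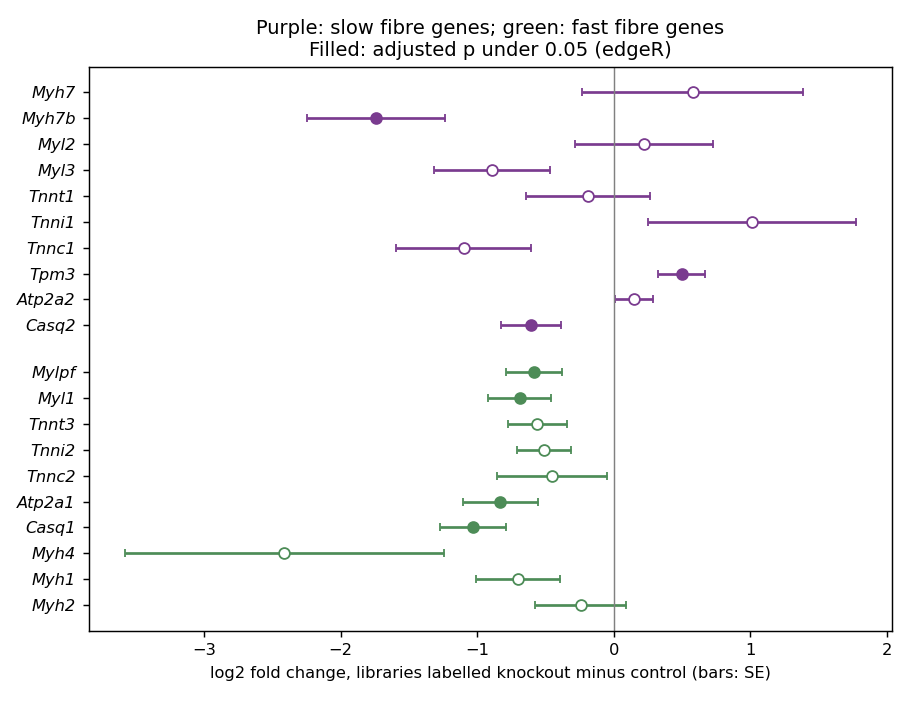
Log2 fold change of each slow fibre gene (purple) and of fast fibre genes (green), libraries labelled knockout minus control, with SE as bars and filled points where the edgeR adjusted p was under 0.05. Slow genes lie on both sides of 0, from -1.74 for *Myh7b* to 1.01 for *Tnni1*, while all 10 fast genes plotted lie below 0.

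To compare slow with fast forms of the same protein within a library, which does not depend on scaling between libraries, the log2 ratio was taken for 8 pairs, with an exact permutation test of the mean difference (two-sided, 125970 assignments). The calcium pumps gave the smallest p. *Atp2a2* relative to *Atp2a1* had a log2 ratio of -7.87 to -4.98 in control (mean -6.11 ± 0.90 SD, n = 8) and of -6.12 to -4.26 in the libraries labelled knockout (mean -5.16 ± 0.56 SD, n = 12). The ratio was above the control median in 11 of 12 libraries labelled knockout and differed by 0.95 (exact permutation p = 0.00623, 0.0499 after adjustment over the 8 ratios). It passed in 5 of 20 omissions of 1 library, with an adjusted p of 0.157 without control replicate 8. In the edgeR fit the fast pump *Atp2a1* fell by 0.83 on the log2 scale (SE 0.27, adjusted p = 0.0334), and the slow pump did not pass. *Atp2a2* is also used outside muscle, so this ratio can vary with the muscle content of a sample as well as with fibre type. The 15 general muscle genes had a median log2 fold change of -0.47, and the part of muscle content in the ratio was not tested.

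None of the other 7 ratios passed. The mean difference of *Myl2* to *Mylpf* was 0.72 (exact permutation p = 0.326), of *Tnnt1* to *Tnnt3* 0.56 (exact permutation p = 0.335), of *Tnni1* to *Tnni2* 0.88 (exact permutation p = 0.327), of *Casq2* to *Casq1* 0.46 (exact permutation p = 0.307) and of *Myl3* to *Myl1* 0.04 (exact permutation p = 0.938). *Myh7* relative to the fast myosin *Myh4* spread over -12.8 to -1.71 in control and -13.0 to 2.21 in the libraries labelled knockout, so that a mean difference of 1.55 was well within the spread (exact permutation p = 0.474). For *Tnnc1* to *Tnnc2* the difference was -0.38 (exact permutation p = 0.531), and the ratio is uncertain because *Tnnc2* had only 3 to 31 counts per library and 22.0% of its 100-base stretches are shared with the overlapping gene *Ube2c*.

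**Figure D3:**
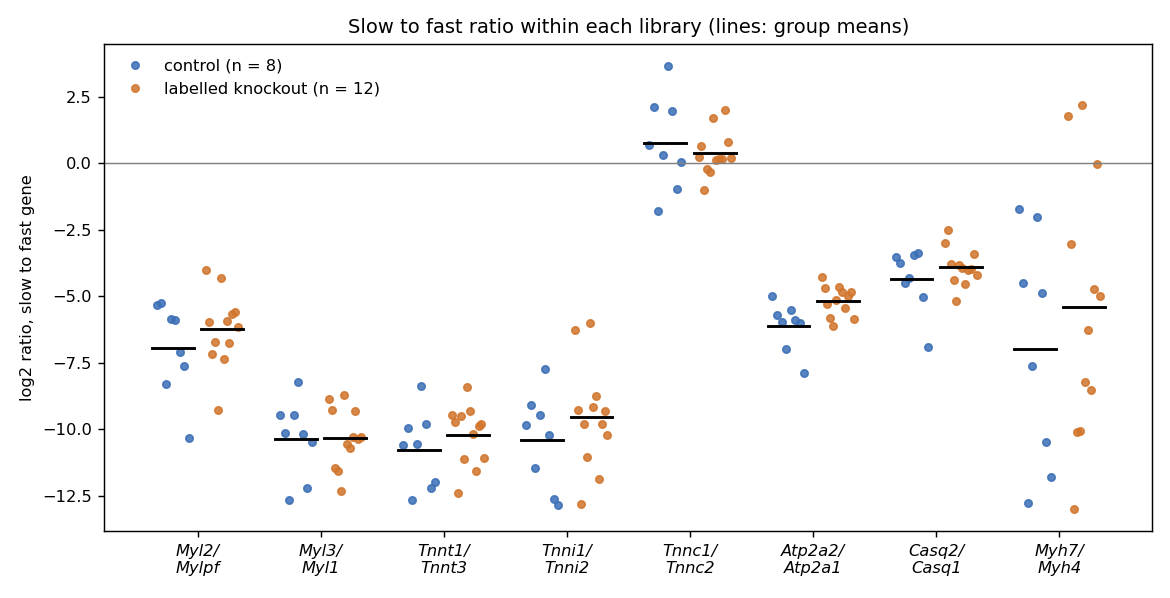
Log2 ratio of each slow fibre gene to its fast partner (vertical axis) in every library, control in blue (n = 8) and labelled knockout in orange (n = 12), with group means as lines. The *Atp2a2* to *Atp2a1* ratio is higher in the libraries labelled knockout, with means of -5.16 and -6.11, and *Myh7* to *Myh4* covers the widest range in both groups.

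The members tended to vary together across libraries. After group means were removed, Pearson's r was above 0 in all 45 pairs of members over the 20 libraries, with a median of 0.49 and a range from 0.09 to 0.86. The closest pairs were *Tnnc1* with *Tnnt1* (r = 0.86), *Tnni1* with *Tnnt1* (r = 0.83) and *Tnni1* with *Myh7* (r = 0.80). *Tpm3* followed *Myh7* least (r = 0.09). These values are descriptive, since all genes of a library share its scaling and its muscle content. Relations of the members with the level of general muscle genes within groups are given below, and none passed adjustment. With few libraries in each group, that result cannot decide the part of muscle content in these correlations, which was not tested. Only group means were removed, and not the difference with reads of Y-linked genes described below. For that difference the members had a median log2 fold change of -1.25, and its part in these correlations was not tested. The genes most like *Myh7* outside the list were *Nudt1* (r = 0.76), *Myl6b* (r = 0.74), *Dbp* (r = 0.72), *Eno1b* (r = 0.69) and *Ficd* (r = 0.68). Those most like *Atp2a2* were *Myh2* (r = 0.81), *Klhl34* and *Ube2q1* (r = 0.79 each). *Tpm3* was most like *Cap1* (r = 0.89), *Arpc1b* (r = 0.88) and *Sdf2l1* (r = 0.86), of which *Cap1* and *Arpc1b* encode proteins of actin filament turnover and branching.

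**Figure D4:**
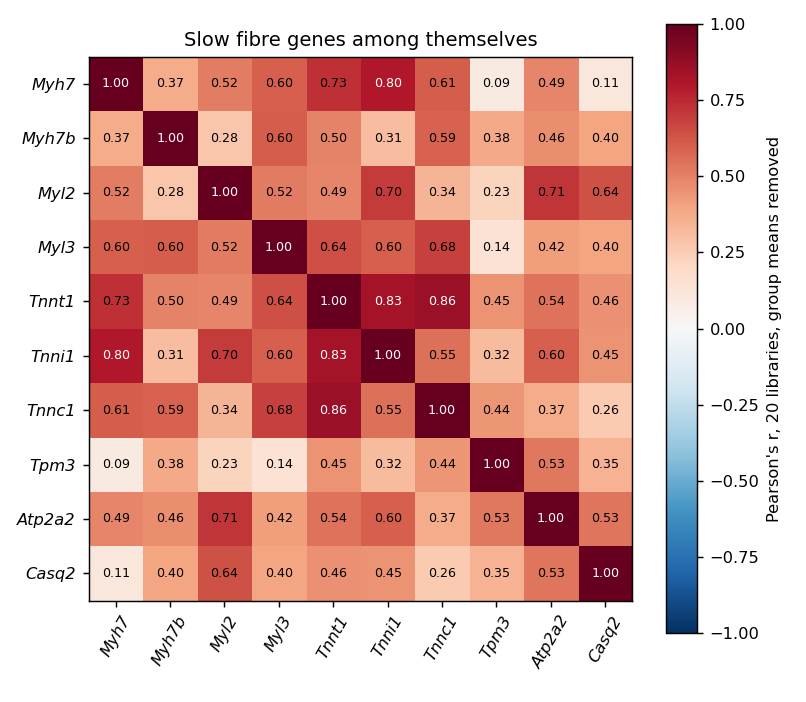
Pearson's r between the log2 CPM of each pair of slow fibre genes over 20 libraries after group means were removed (colour scale from -1 to 1, value in each cell). Every value is above 0, *Myh7*, *Tnnt1*, *Tnni1* and *Tnnc1* form the closest block, and *Tpm3* with *Myh7* is the lowest at 0.09.

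Within groups, the members were compared with the level of general muscle genes. Of 20 relations with the mean log2 CPM of 15 general muscle genes, 0 passed after Benjamini-Hochberg adjustment by Pearson's r or by Spearman's rho. The relation with the smallest Pearson p was that of *Atp2a2* in control (n = 8), with r = -0.68 (exact permutation p = 0.0613, adjusted p = 0.898) and rho = -0.74 (exact permutation p = 0.0458, adjusted p = 0.458). Without the 2 libraries farthest from the median muscle level, r was -0.37. In the libraries labelled knockout (n = 12) *Atp2a2* had r = 0.29 (permutation p = 0.362) and rho = 0.38 (permutation p = 0.228; adjusted p = 0.898 and 0.892), and r = 0.54 without the 2 farthest libraries. *Tpm3* in control had r = -0.63 (exact permutation p = 0.0925, adjusted p = 0.898) and rho = -0.81 (exact permutation p = 0.0218, adjusted p = 0.436), and r = -0.55 without those libraries.

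The levels of the slow fibre genes were also compared with reads of Y-linked genes. The labels give no sex, so libraries were divided, after their values had been seen, by the summed counts of *Ddx3y*, *Eif2s3y*, *Kdm5d* and *Uty*. These were 1585 to 3326 in 9 libraries (3 of 8 control, 6 of 12 labelled knockout) and 0 to 10 in the other 11. The methods give equal numbers of males and females in each group, which the control libraries did not show. The split therefore stands for Y-linked reads and not for a recorded sex.

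Among the members, *Myl2* was the only one called for this split, in the fit over both groups given below. In control it was at 5.59 to 20.6 CPM in the 3 libraries with Y-linked reads and at 31.9 to 77.7 CPM in the other 5, with no overlap. In the libraries labelled knockout it was at 6.47 to 28.7 CPM (n = 6) against 26.3 to 148 CPM (n = 6), where the ranges overlapped between 26.3 and 28.7 CPM. Ranges without overlap were not particular to *Myl2*. In control, *Atp2a2* (123 to 156 against 186 to 267 CPM), *Casq2* (19.1 to 41.2 against 46.2 to 83.4 CPM) and *Tnni1* did not overlap either. *Myl3* overlapped in control but not in the libraries labelled knockout (0.563 to 1.33 against 1.67 to 3.10 CPM). How many of all genes separate in this way was not counted. In a fit over all 20 libraries with the group as a term, *Myl2* was lower with Y-linked reads by a log2 fold change of -1.98 (SE 0.33, with an edgeR adjusted p of 0.00621), 1 of 8 genes called lower among 15984 tested, or 0.0501%. Another 15 genes, or 0.0938%, were called higher, and none of them was a member. The 4 Y-linked genes that define the split were among the genes tested, and their higher level follows from the split itself. *Myl2* passed in 20 of 20 omissions of 1 library, with an edgeR adjusted p from 0.00162 to 0.0230. In fits within control alone and within the libraries labelled knockout alone, *Myl2* was at -2.12 and -1.88 on the log2 scale but did not pass (edgeR adjusted p = 0.577 and 0.261), and no member was called. Of all genes tested, the 4 Y-linked genes included, 5 and 9 were called in these fits, and 847 and 1075 had an unadjusted p under 0.05.

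The other 9 members did not pass in that fit, although all 10 estimates were below 0. Their median, *Myl2* included, was -1.25 on the log2 scale, against -0.01 over all genes tested. *Tnni1* was at 0.777 to 1.87 CPM with Y-linked reads and 3.83 to 18.3 CPM without in control, and at 0.548 to 6.37 against 3.77 to 61.1 CPM in the libraries labelled knockout. In the fit it stood at -2.66 (SE 0.58, with an edgeR adjusted p of 0.0834). *Casq2* had -0.76 (SE 0.16, with an edgeR adjusted p of 0.0741) and *Myh7* -2.12 (SE 0.72, with an edgeR adjusted p of 0.499). The fast myosin *Myh4* was higher with Y-linked reads, with a log2 fold change of 5.03 (SE 0.76, with an edgeR adjusted p of 0.00205), at 506 to 20036 CPM in libraries with Y-linked reads and 5.10 to 438 CPM in those without. *Myh2*, another fast myosin, had a negative estimate like the slow genes, at -1.06 (SE 0.27; edgeR adjusted p = 0.195), with 1020 to 4631 CPM with and 8995 to 11434 CPM without Y-linked reads in control, and with 3118 to 5796 against 3810 to 10752 CPM in the libraries labelled knockout. The share of *Myh4* among the 4 adult myosin counts was 3.40% to 39.1% with and 0.0378% to 1.57% without Y-linked reads.

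**Figure D5:**
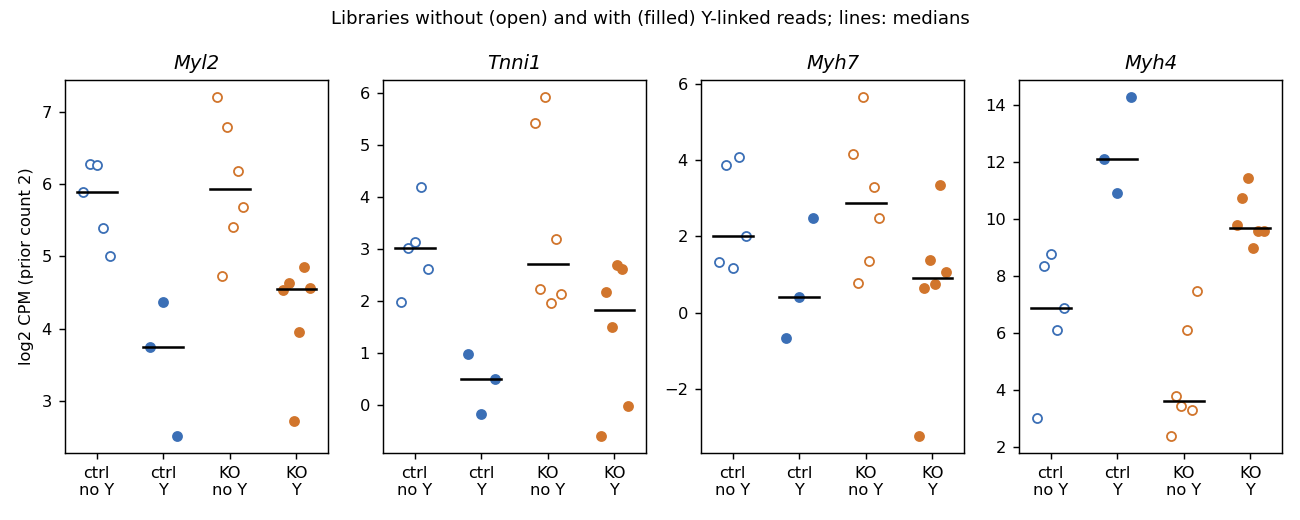
Log2 CPM (prior count of 2) of *Myl2*, *Tnni1*, *Myh7* and *Myh4* in libraries without (open) and with (filled) Y-linked reads, for control (blue, 5 and 3 libraries) and libraries labelled knockout (orange, 6 and 6), with medians as lines. *Myl2* is lower and *Myh4* is higher with Y-linked reads in the fit over both groups, and *Tnni1* and *Myh7* did not pass. In the libraries labelled knockout *Myl2*, *Tnni1* and *Myh7* overlap, and *Myh7* overlaps in control as well.

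The comparison of the libraries labelled knockout with control was also run with Y-linked reads as a term. *Myh7b* was then at -1.37 ± 0.48 (SE, with an edgeR adjusted p of 0.0431) and *Tpm3* at 0.53 ± 0.18 (edgeR adjusted p = 0.0357). *Casq2* narrowly missed the threshold at -0.44 ± 0.16 (edgeR adjusted p = 0.0521). With a score of the Y-linked genes as covariate instead, *Casq2* passed at -0.46 ± 0.16 (edgeR adjusted p = 0.0401). *Myh7b* and *Tpm3* passed in that fit as well (edgeR adjusted p = 0.0392 and 0.0337). The call of *Casq2* thus depended on how Y-linked reads entered the fit. The term, unlike the score, was added after the values had been seen.

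Other genes of slow fibres and of their control were read from the same fit. Against 12.0% of all genes tested called higher and 11% called lower, 3 of 11 further slow fibre or slow-enriched genes fell and none rose in the libraries labelled knockout, with a median log2 fold change of 0.07. They were *Hrc*, a histidine-rich calcium-binding protein of the sarcoplasmic reticulum, at -0.81 ± 0.18 (SE, with an edgeR adjusted p of 0.00400), *Mybpc1*, the slow myosin binding protein C, at -0.49 ± 0.15 (edgeR adjusted p = 0.0203), and *Lmod2*. Of 19 regulators of slow fibre genes, 11 fell and 1 rose, with a median of -0.33. Among them *Six4* fell by 0.50 (SE 0.11, with an edgeR adjusted p of 0.00467), *Tead1*, which binds MCAT letters, by 0.44 (SE 0.11, with an edgeR adjusted p of 0.00885) and *Mef2c*, a factor of the MEF2 family, by 0.36 (SE 0.10, with an edgeR adjusted p of 0.0130) on the log2 scale. *Nfatc1*, which mediates calcineurin signalling in slow fibres and is also a regulator of osteoclasts, was the gene that rose. The regulators are not specific to muscle, and general muscle genes had a median log2 fold change of -0.47 in the same comparison.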

How the data were processed

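RNA from 20 TMJ samples (8 control, 12 labelled knockout; groups and replicate numbers from the sample titles) was sequenced by the authors on an Illumina platform, trimmed, mapped to mm10 and counted per gene with featureCounts. The deposited table holds raw counts. The aligner, annotation release, use of strand and handling of reads with several positions are not given in the sources used here. Of 54532 gene identifiers, 54495 were matched to GENCODE M21. Library totals were 11153820 to 27045668 counts, so that the floor of 3 counts is 0.111 to 0.269 CPM.

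Genes were kept by filterByExpr, scaled by TMM and tested with the edgeR 4.0.16 quasi-likelihood F-test in R 4.3.3 (two-sided, Benjamini-Hochberg over all 15984 genes tested, threshold 0.05), and DESeq2 1.42.0, the tool of the study, was an alternative. The SE of an edgeR log2 fold change was derived from the test, as its absolute value divided by the square root of the F statistic. CPM are TMM-scaled, and log2 CPM have a prior count of 2. Ratios were compared by exact permutation, and correlations over all 40320 pairings of the 8 controls or 100000 resamples of the 12 other libraries. The procedure was also run on simulated counts, drawn independently for each gene and library with known changes in some genes. These counts held no outlying library, shared muscle content or Y-linked difference, so calls that rest on those were not tested by it. Nothing in the labels ties libraries to separate animals beyond their titles, so p-values measure the spread between these samples.

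Named genes are the 10 members, *Loxl2*, the fast partners, the genes with the 2 smallest p-values and the highest mean of each list used, and the genes most like *Myh7*, *Atp2a2* and *Tpm3*; *Lmod2*, *Nfatc1*, *Myh6* and the Y-linked genes were named after their values were seen. The members and lists were chosen with earlier results of these data known. Replicate numbers were shared by 8 pairs, whose deviations from the group means correlated at -0.39 to 0.19 (Pearson's r), so the numbers were not treated as pairing. Alternatives were other scalings, filters and tests, marker scores as covariates, the replicate block and omission of each library. The Y-linked term was added after the values had been seen. Sequences are from RefSeq tables on GRCm38.p6.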

Additional observations from a re-analysis of the deposited data

Results flagged for a closer look

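In control, the log2 ratio of *Casq2* to *Casq1* of replicate 8 was -6.91, whereas the other 7 libraries lay between -5.04 and -3.36. The gap to the nearest library was 0.526 of the whole range, at the edge of the 95% critical value of Dixon's test for 8 samples. It was the only such value among 19 sets of control values examined (10 gene levels, 8 ratios and the *Myh7* share), and chance gives about 1 such value in 20 sets. The same library had the highest *Casq1* level of control, at 2308 CPM, the next being at 1283 CPM. Its *Casq2* level of 19.1 CPM was the lowest of control but close to the 22.1 CPM of replicate 7. It also had the lowest *Tpm3*, *Atp2a2* and *Myl2* levels of control, and Y-linked reads, and the part of these in this ratio was not tested.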

How the results depend on the processing

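The counts of members called depended on the processing. Members called lower, 2 in the fit reported, were 1 with library totals as scaling, with no filter, with robust dispersion, with the 16 libraries of the replicate block with or without the replicate block, and with the Y-linked term, and 0 with the muscle or osteoclast score as covariate. Members called higher, 1 in the fit reported, were 0 with no filter and with the muscle, fast fibre or osteoclast score. Genes called over all genes, 3673 in the fit reported, were 1786 with the replicate block, 155 with the muscle score, 941 with the fast fibre score and 0 with the osteoclast score, where 1289 had an unadjusted p under 0.05 in edgeR and DESeq2 was not run with that score. The median of the members was then -1.06. With library totals, all genes shifted by 0.12 on the log2 scale and 2188 genes were called higher and 849 lower, or 72.0% higher against 52.2% in the fit reported.

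Omission of 1 library at a time gave 0 to 2 members called lower, 0 to 1 called higher and 0 to 1 ratios passing. Only the omission of control replicate 5 ended the call of *Myh7b*, while that of *Casq2* held in 4 and that of *Tpm3* in 7 of 20 omissions. Signs turned for genes that did not pass. *Myh7* was at -0.064 and *Tnnt1* at 0.095 with the replicate block, *Myl2* at -0.061 with the muscle score, *Myh7*, *Myl2* and *Tnni1* at -0.34, -0.76 and -0.49 with the fast fibre score, *Atp2a2*, *Myh7*, *Myl2* and *Tnni1* at -0.13, -1.29, -0.83 and -1.26 with the osteoclast score, and *Tnnt1* at 0.15 and 0.17 with the Y-linked score or term. Over omissions *Myh7* ranged from -0.25 to 1.02, *Myl2* from -0.084 to 0.43, *Tnnt1* from -0.43 to 0.21, the difference of the *Myl3* to *Myl1* ratio from -0.29 to 0.35 and that of *Tnnc1* to *Tnnc2* from -0.74 to 0.036. *Tnnc1* passed only without control replicate 3. The causes were not tested. DESeq2's Wald test called the same numbers of members, 1 higher and 2 lower. At levels near 1 CPM, as for *Myh7b*, *Tnnc1* and *Myl3*, counts of 1 to 199 per library limit precision.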
